A study of Mus musculus with 14 samples.

Results

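Mouse macrophages stimulated with poly(I:C) were compared between cells that also received GW7845, an agonist of the nuclear receptor PPARγ, and cells that also received GW3965, which activates the liver X receptors (LXRs). The comparison rested on 4 of the 14 microarrays of the study, the arrays titled GW7845 + PolyIC 1 and 2 and the arrays titled GW3965 + PolyIC 1 and 2, and on all probes of the deposited table. Poly(I:C) is a synthetic double-stranded RNA that engages the receptor TLR3. The other groups, of 2 arrays each, received poly(I:C) alone, LPS (a bacterial ligand of TLR4) with GW7845, LPS with GW3965, LPS alone, or no treatment. The cells in every group were primary macrophages elicited into the peritoneum with thioglycollate in female C57BL/6 mice aged 6 weeks, with no genetic change named. The series text counts the 2 arrays of a condition as biological replicates and leaves it unsaid if cells of several animals were pooled. The sources used here give no doses, times or vehicle, and neither agonist was given to unstimulated cells. The differences below are therefore between the treatments as given. The question named by the series title is how PPARγ and LXRs each repress the response to Toll-like receptors.

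LXRs and PPARγ are ligand-activated transcription factors that each pair with RXR on DNA. LXRs are switched on by oxysterols and drive genes that move cholesterol out of macrophages and genes that make fatty acids. PPARγ is switched on by fatty acid derivatives and drives genes of lipid uptake and storage. Ligands of both are known to dampen inflammatory genes in macrophages. GW3965 and GW7845 are synthetic ligands of different receptors, and are not versions of 1 molecule.

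The 14 arrays fell into 2 sets of 7, set A and set B, that split on the 10th percentile of intensity (0.137 to 0.271 in set A and 0.0549 to 0.0833 in set B) and not on treatment. No label names the sets, so a difference in array processing and one between replicate cells cannot be told apart. Each group had 1 array in each set, and replicate 1 of both agonist groups under poly(I:C) lay in set A. Levels below are log2 intensities on which 0 is the median probe of the array, since the authors' values had a median of 1 on each array. Differences are GW7845 minus GW3965 on the log2 scale unless another pair is named, each the mean of the differences in the 2 sets, and the standard error (SE) comes from a limma fit to all 14 arrays with the set as a block. Calls were made at a p under 0.05 after Benjamini-Hochberg adjustment over the 9486 tested probes. Of the 10 macrophage markers tested, the median level lay between 6.01 and 6.25 on each of the 4 arrays, and the summed intensity was 4153 and 2973 with GW7845, against 2986 and 2324 with GW3965. Dendritic, lymphoid, granulocyte, mesothelial and endothelial marker lists had median levels from -3.12 to 1.79, and none of their members was called.

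The array titled GW7845 + PolyIC 1 differed from its counterparts on a group of genes. On it, 28 probes lay at least 4-fold above and 9 at least 4-fold below every other stimulated array of set A. The other stimulated arrays of set A had 1 to 6 such probes above and 1 to 30 below, the 30 being on GW3965 + LPS 1, and those of set B had 1 to 22 above and 0 to 3 below. The chitinase-like protein gene Chil3 had a level of 8.30 on GW7845 + PolyIC 1 and 4.23 on GW7845 + PolyIC 2, against 4.26 and 4.16 with GW3965. The glucocorticoid-induced leucine zipper gene Tsc22d3 had 6.88 and 2.87 with GW7845, against 3.85 and 3.74 with GW3965, and untreated macrophages had 6.49 and 6.33. The metallothionein gene Mt2 had 5.87 and 1.44 with GW7845, against 0.76 and 0.74 with GW3965, and untreated macrophages had 1.25 and -0.48. In each of these the first GW7845 array was high alone among the 4. In the other direction, Clec7a, the β-glucan receptor dectin-1, had 2.41 and 6.03 with GW7845, against 6.06 and 5.65 with GW3965, and the cyclooxygenase gene Ptgs2 had 0.31 and 3.65, against 3.95 and 3.30. The cytokine gene Il1a had 5.23 and 9.40 with GW7845, against 8.32 and 8.39 with GW3965.

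Many of the genes high on that array are known to respond to glucocorticoids. Of a list of 20 such genes, written after the values had been seen, 18 were tested and 14 had their highest level among the 12 stimulated arrays on GW7845 + PolyIC 1, while no other stimulated array was the highest for more than 2. They included the phosphatase gene Dusp1 (5.59 there, against 1.55 to 2.97 on the other stimulated arrays), the glutamine synthetase gene Glul (6.25, against 1.95 to 3.48) and the haptoglobin gene Hp (6.62, against 2.53 to 4.20). Untreated macrophages had 2.02 and 1.25 for Dusp1, 4.70 and 4.10 for Glul, and 3.20 and 2.58 for Hp. The share of all tested probes that were highest on this array was not counted, so 14 of 18 describes the list and is no test. The median difference of the 18 genes was 1.49 in set A and 0.19 in set B, beside +0.25 and +0.04 over all tested probes. No label names a glucocorticoid, and what set this array apart was not tested. Results are therefore given with it and, for part of those that change, also without it or by set.

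**Figure D1:**
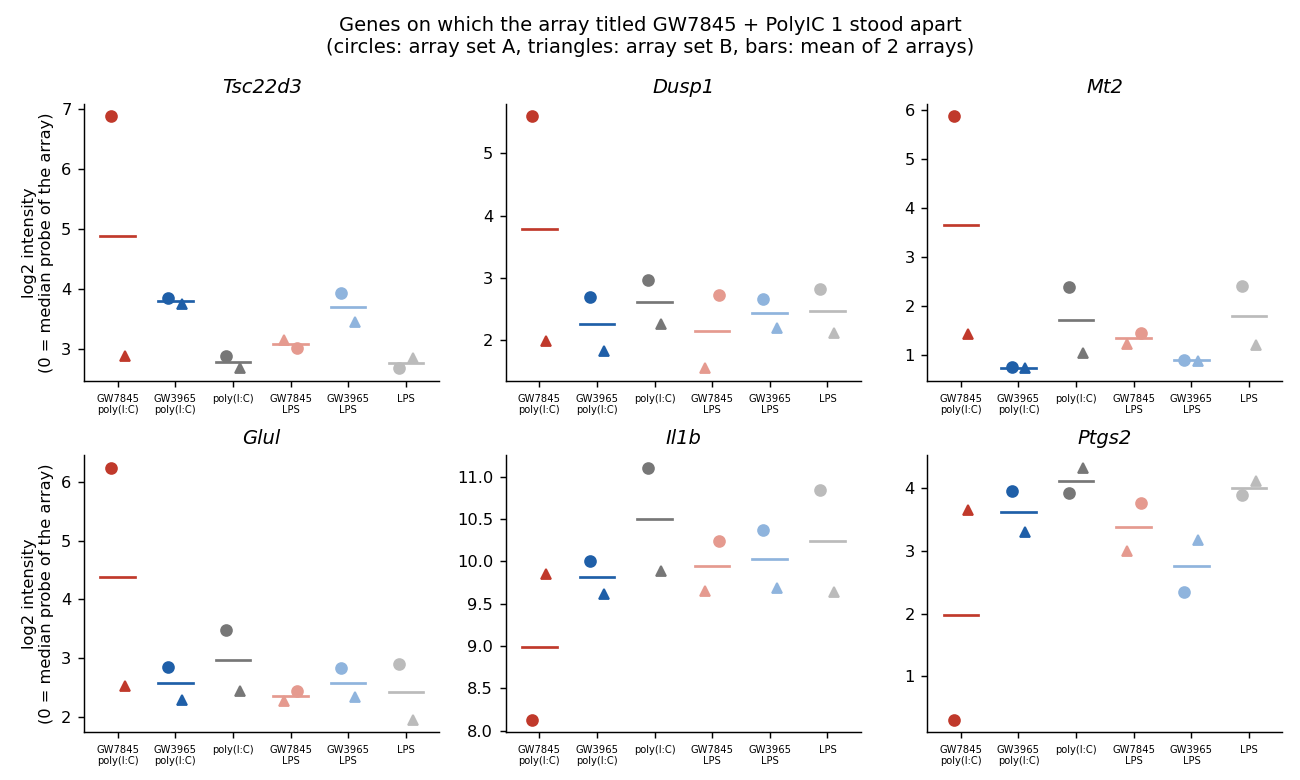
Log2 intensity of 6 genes on the 12 stimulated arrays, by group, with a horizontal bar at the mean of the 2 arrays of a group. In Tsc22d3, Dusp1, Mt2 and Glul the set A array of GW7845 + poly(I:C) lies above all other arrays shown, and in Il1b and Ptgs2 it lies below them.

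Between GW7845 and GW3965 under poly(I:C), limma called 10 of the 9486 probes (0.105%), 3 higher with GW7845 (0.0316%) and 7 lower (0.0738%). All 7 lower probes were known LXR target genes: the lipid-making genes Scd2, Fasn and Mid1ip1, the cholesterol exporters Abca1 and Abcg1, and Cd5l and Eepd1. They were 4.29-fold (Mid1ip1) to 25.0-fold (Scd2) lower with GW7845. The higher probes were Xist and 2 probes with no gene symbol. At an unadjusted p under 0.05 there were 757 probes (7.98%), 550 higher (5.8%) and 207 lower (2.18%). Without the array set as a block, 4 of the 10 were called, Scd2, Abcg1, Cd5l and Eepd1, at adjusted p-values of 0.018 to 0.024.

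Scd2, a desaturase that makes monounsaturated fatty acids, had levels of -1.28 and 1.56 with GW7845, against 5.25 and 4.31 with GW3965. It fell by 4.64 with GW7845 (SE 0.63, adjusted p = 0.0058), by 6.53 within set A and 2.75 within set B, so its size depended on the array that stood apart. Without that array it fell by 3.20 (adjusted p = 0.016). Abca1, which loads cholesterol onto apolipoprotein A-I, had -0.81 and -1.66 with GW7845, against 1.98 and 1.41 with GW3965, and fell by 2.92 (SE 0.46, adjusted p = 0.019). Its difference was -2.78 in set A and -3.06 in set B. Abcg1, which passes cholesterol to HDL, had 2.45 and 3.72 with GW7845, against 6.00 and 5.89 with GW3965, and fell by 2.86 (SE 0.33, adjusted p = 0.0014). Its difference was -3.55 in set A and -2.17 in set B, and -2.23 without the array that stood apart. In all 3 genes both GW7845 arrays lay below both GW3965 arrays, as in 8.51% of all tested probes.

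Fasn, the fatty acid synthase, had 0.75 and 2.22 with GW7845, against 4.02 and 4.04 with GW3965. It fell by 2.54 (SE 0.40, adjusted p = 0.019), while a second, dimmer Fasn probe had a difference of -0.88 (SE 0.56, adjusted p = 0.73). The brighter probe differed by -3.27 in set A and -1.82 in set B. Fasn was also the 1 gene of the 7 that lost its call without GW7845 + PolyIC 1 (-1.68, adjusted p = 0.091). Mid1ip1, a regulator of acetyl-CoA carboxylase, had 3.82 and 3.55 with GW7845, against 5.84 and 5.72 with GW3965, and fell by 2.10 (SE 0.25, adjusted p = 0.0017). Both GW7845 arrays again lay below both GW3965 arrays in Fasn and Mid1ip1.

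Cd5l, a secreted macrophage protein also known as AIM that protects macrophages from death, had 3.55 and 3.09 with GW7845, against 6.03 and 5.65 with GW3965. It fell by 2.52 (SE 0.24, adjusted p = 0.0004), the smallest p of the comparison, by 2.48 in set A and 2.56 in set B. Eepd1, an endonuclease-like protein linked to cholesterol export, had 1.69 and 1.35 with GW7845, against 3.66 and 3.94 with GW3965, and fell by 2.28 (SE 0.26, adjusted p = 0.0013). Cd5l and Eepd1 changed by a similar amount in both sets, and with Abcg1 they kept their call under all 13 alternative settings tried.

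**Figure D2:**
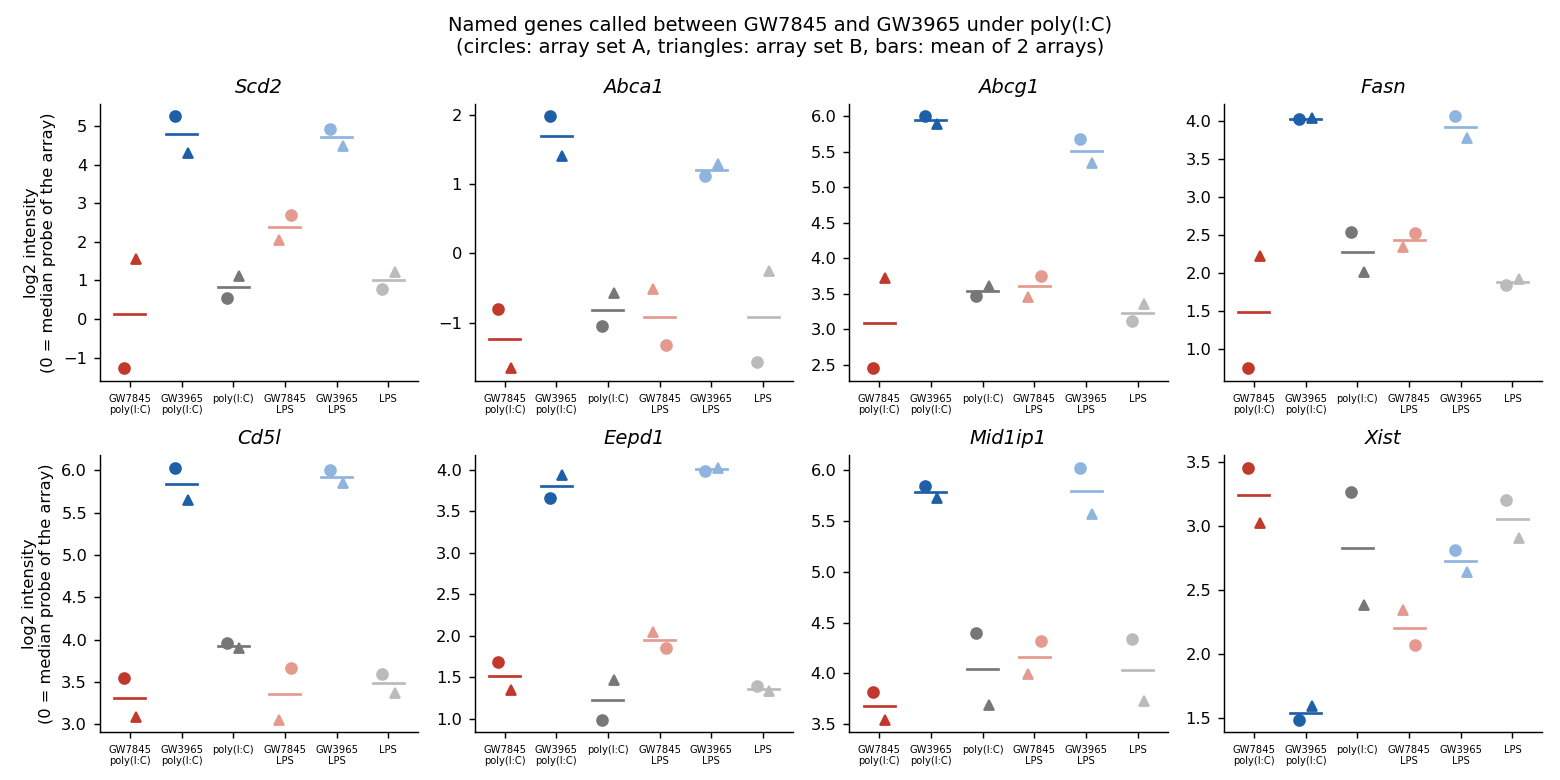
Log2 intensity of the 8 named genes called between GW7845 and GW3965 under poly(I:C), on each stimulated array by group, with a bar at the mean of 2 arrays. In the 7 LXR targets both GW7845 arrays lie below both GW3965 arrays under either stimulus, and in Xist both GW7845 arrays lie above both GW3965 arrays under poly(I:C) but below them under LPS.

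The arrays with poly(I:C) alone place both agonists, though these comparisons share arrays with the one above. With GW7845, the 7 genes differed from poly(I:C) alone by -0.79 (Fasn) to +0.29 (Eepd1), and no probe was called among the 9486 (0%; 359 at an unadjusted p under 0.05, or 3.78%). The 95% interval of the GW7845 effect ran from -0.27 to +0.84 for Eepd1, from -1.17 to +0.26 for Abcg1 and from -2.05 to +0.66 for Scd2. For Cd5l, at -0.61, it ran from -1.12 to -0.10 and left out 0, with an unadjusted p of 0.022. Of the 7 genes, 6 had a GW7845 value below 0, where the median over all tested probes was +0.03. The 7 had been chosen as lower on these same GW7845 arrays than with GW3965. That count and the Cd5l interval are therefore no independent test. With GW3965, 6 probes were called higher than with poly(I:C) alone (0.0633%) and 1 lower (0.0105%), with 590 at an unadjusted p under 0.05 (6.22%). The 6 were Scd2 (+3.95, adjusted p = 0.034), Eepd1 (+2.57, adjusted p = 0.00093), Abcg1 (+2.40, adjusted p = 0.014), Cd5l (+1.91, adjusted p = 0.0058), Mid1ip1 (+1.74, adjusted p = 0.015) and Tmem86a, an enzyme of plasmalogen breakdown (+1.64, adjusted p = 0.043). Abca1 was +2.50 (adjusted p = 0.091) and Fasn +1.75 (adjusted p = 0.20). Abcg1 levels were 3.47 and 3.61 with poly(I:C) alone, beside 2.45 and 3.72 with GW7845 and 6.00 and 5.89 with GW3965. In Abcg1 both GW3965 arrays lay above the other 4, and the GW7845 arrays lay on either side of those with poly(I:C) alone.

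LXR and RXR bind a direct repeat with a spacer of 4 bases. The motif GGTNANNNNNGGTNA, the core of such a repeat, was searched on both strands of the 250 bases before the gene start, in RefSeq promoters of build GRCm38.p6. No other motif was searched. Of the 7 genes, 5 had a window in that table, and 2 of the 5 held a match, Abca1 and Fasn, as did 0.621% of all 32851 windows. Both are shown because the same 15 letters stand in 2 called genes, one for cholesterol export and one for fatty acid synthesis. The Abca1 window is chr4:53159896-53160145 and the Fasn window is chr11:120824548-120824797, both on the minus strand. They are printed along the gene's strand, 5′ to 3′, up to the base before the annotated start, and capitals mark the match, which reads GGTTACTACCGGTCA on the opposite strand.
Abca1: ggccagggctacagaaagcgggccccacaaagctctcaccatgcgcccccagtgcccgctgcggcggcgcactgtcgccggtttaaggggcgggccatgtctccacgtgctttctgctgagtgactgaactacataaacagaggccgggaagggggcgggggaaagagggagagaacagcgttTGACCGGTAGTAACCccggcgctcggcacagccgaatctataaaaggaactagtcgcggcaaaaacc
Fasn: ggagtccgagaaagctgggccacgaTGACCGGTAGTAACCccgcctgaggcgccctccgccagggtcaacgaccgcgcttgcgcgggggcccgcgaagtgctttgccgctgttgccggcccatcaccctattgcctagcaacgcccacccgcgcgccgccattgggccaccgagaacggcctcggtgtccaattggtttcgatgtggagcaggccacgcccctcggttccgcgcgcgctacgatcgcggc
The match spans 67 to 53 bases before the start in Abca1 and 225 to 211 bases before it in Fasn. The windows of Cd5l, Eepd1 and Mid1ip1 held no match to these letters. A match is a string of letters and no measure of binding.

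Of 25 LXR targets listed, 19 were tested and 7 were called lower, where 0.0738% of all probes were. The list was drawn up with results of these arrays known, so its direction is not independent evidence. Its median difference was -0.99, beside +0.14 over all tested probes, and 14 of 19 members were below 0, beside 37.8% of all probes. In 10 of the 19 both GW7845 arrays lay below both GW3965 arrays, beside 8.51% of all probes. The median was -0.81 in set A and -1.33 in set B. Members that did not pass included Tmem86a at -1.47 (SE 0.27, adjusted p = 0.063), the phospholipid transfer protein gene Pltp at -1.26 (adjusted p = 0.44), the apolipoprotein gene Apoc1 at -0.99 (adjusted p = 0.75) and lipoprotein lipase, Lpl, at -0.92 (adjusted p = 0.35). Scd1, a close relative of Scd2, had levels of 1.32 and 0.73 with GW7845, against 1.18 and 1.60 with GW3965, a difference of -0.37 (95% interval -1.16 to 0.42). Srebf1, the regulator of fatty acid synthesis, lay at or near the floor of -3.87 on all 4 arrays, so its difference of -0.19 says little. Apolipoprotein E, Apoe, was high in both groups, at 9.82 and 7.77 with GW7845, against 9.02 and 8.42 with GW3965, and differed by +0.07 (95% interval -0.78 to 0.92). That value averaged +0.80 in set A and -0.65 in set B. The highest members were Apoc2 at +0.41 and the phosphodiesterase gene Smpdl3a at +0.41. The LXRα gene Nr1h3 and Rgs16 had probes that failed the filter on dim probes. Of 10 tested genes of cholesterol synthesis and uptake, which the sterol sensor SREBP2 drives, none was called, with a median of -0.04 and a range from -0.59 (Nsdhl) and -0.44 (Sc5d) to +0.68 (Fdft1) and +1.39 (Hsd17b7). That median averaged opposite signs, -0.65 in set A and +0.61 in set B, and was +0.49 without GW7845 + PolyIC 1 and -0.53 without GW7845 + PolyIC 2.

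Xist, the RNA that coats the inactive X chromosome of female cells, had levels of 3.46 and 3.03 with GW7845, against 1.49 and 1.59 with GW3965. It was higher by 1.70 with GW7845 (SE 0.29, adjusted p = 0.033). With poly(I:C) alone it had 3.27 and 2.38, and over all other arrays it ranged from 2.07 to 3.27, so the 2 arrays with GW3965 and poly(I:C) were the lowest of the 14. The call was lost in 7 of 13 alternatives, among them the fit without the array-set block (adjusted p = 0.37) and the fit without GW7845 + PolyIC 1 (+1.58, adjusted p = 0.25).

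The other higher probes carry no gene symbol in the annotation used. Probe 3661 had levels of 4.06 and 2.05 with GW7845, against -0.83 and -1.48 with GW3965, and was higher by 4.21 (SE 0.44, adjusted p = 0.00076). With poly(I:C) alone its levels were 1.45 and -1.43, between the 2 agonist groups in set A and close to GW3965 in set B. Against poly(I:C) alone it differed by +3.05 with GW7845 (adjusted p = 0.067) and by -1.17 with GW3965 (adjusted p = 0.66), and neither passed. Probe 4439 had 3.33 and 1.12 with GW7845, against 0.91 and -1.38 with GW3965, and was higher by 2.46 (SE 0.39, adjusted p = 0.019). With poly(I:C) alone it had 3.50 and 1.38, and it was the 1 probe called lower with GW3965 than with poly(I:C) alone (-2.68, adjusted p = 0.015). In both probes both GW7845 arrays lay above both GW3965 arrays under poly(I:C), as in 13.6% of all tested probes. Under LPS probe 4439 differed by -0.44 (SE 0.39).

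The named genes next in order of p did not pass. In the higher direction they were the NK-cell receptor family gene Klra2 (+1.94, adjusted p = 0.056), the calprotectin subunit gene S100a8 (+1.83, adjusted p = 0.063), Tlr2, a receptor for bacterial lipoproteins (+1.13, adjusted p = 0.096), the prostaglandin E synthase gene Ptges (+1.24, adjusted p = 0.096), Zeb1 (+1.82, adjusted p = 0.10), Rgcc (+1.54), Mcemp1 (+1.65), the interleukin-15 receptor gene Il15ra (+1.37) and Igfbp7 (+1.42). S100a8 had 5.80 and 5.47 with GW7845, against 3.73 and 3.87 with GW3965, and with poly(I:C) alone 5.41 and 4.35. The summed intensity of the 7 tested neutrophil markers, a list that holds S100a8, was 61.4 and 51.1 with GW7845, against 20.9 and 19.9 with GW3965, and S100a8 supplied most of it. The other 6 markers summed to 5.87 and 6.90 with GW7845, against 7.67 and 5.31 with GW3965, so the groups overlapped without S100a8. In these whole-culture samples, fewer cells of a type and less RNA per cell cannot be told apart. In the lower direction were Ap5s1 (-1.64, adjusted p = 0.13) and Irf8, an interferon regulatory factor of the myeloid lineage (-2.30, adjusted p = 0.14), beside Tmem86a. Irf8 had -0.10 and 2.59 with GW7845, against 3.41 and 3.68 with GW3965, and its difference was -3.51 in set A and -1.10 in set B. The 4 tested dendritic cell markers, a list that holds Irf8, had summed intensities of 11.9 and 24.02 with GW7845, against 28.7 and 27.5 with GW3965. Without Irf8 the other 3 summed to 10.96 and 18.01 with GW7845, against 18.1 and 14.7 with GW3965, lower in set A and higher in set B.

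**Figure D3:**
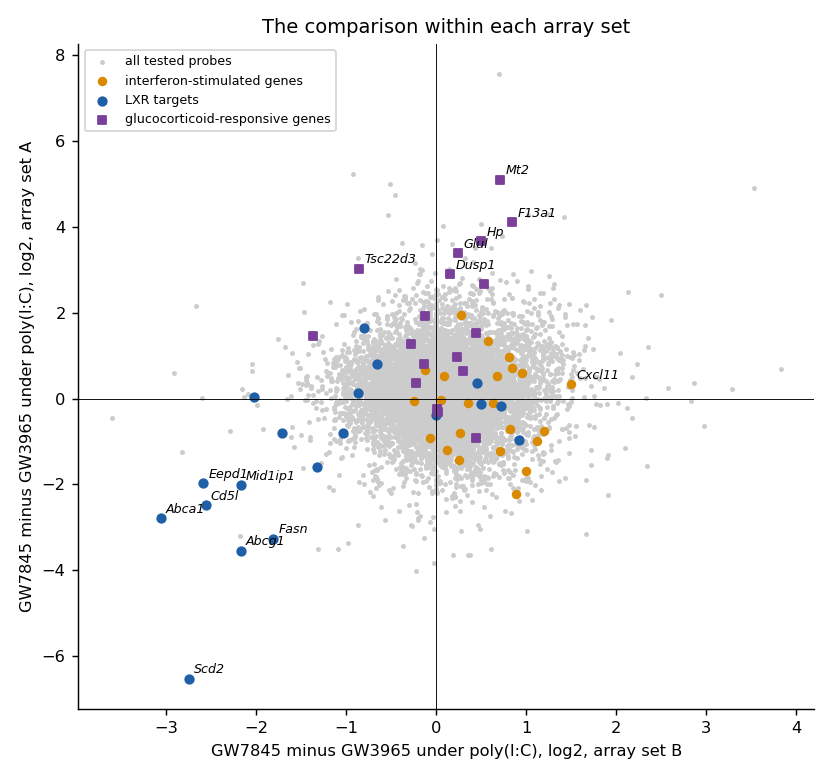
Each point is 1 probe, with its difference between GW7845 and GW3965 under poly(I:C) in array set B on the horizontal axis and in set A on the vertical axis, both log2. The called LXR targets lie below 0 in both sets, glucocorticoid-responsive genes have a median of 1.49 in set A and 0.19 in set B, and over all probes the sets had a Pearson correlation of 0.04.

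Across all tested probes the 2 sets shared little beyond the called genes. The difference had a standard deviation over probes of 0.87 in set A and 0.52 in set B, and 2128 probes differed at least 2-fold in set A, beside 587 in set B. The probes of a set share 2 arrays, so the correlation of 0.04 (Spearman 0.007, n = 9486 probes) is a description. The median over probes was +0.25 in set A and +0.04 in set B, and +0.14 in the fit. After quantile normalization that median was 0.00, a shift of more than 0.1, so small positive list medians below are to be read against +0.14.

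PPARγ targets gave no called member. Of 17 tested, 12 were above 0 (62.2% of all probes were) and the median was +0.28, which turned to -0.04 after quantile normalization. Fabp4, the fatty acid binding protein aP2 and a classic PPARγ target, had 7.25 and 6.60 with GW7845, against 4.99 and 5.62 with GW3965, and 6.29 and 5.94 with poly(I:C) alone. Both GW7845 arrays lay above both GW3965 arrays, and the difference of +1.62 (SE 0.34, adjusted p = 0.13) did not pass. Chil3 at +2.05 (adjusted p = 0.55) came from 1 array, as its set differences of +4.03 and +0.07 show. The scavenger receptor gene Cd36 had 2.57 and 6.21 with GW7845, against 4.97 and 5.30 with GW3965, -2.40 in set A and +0.92 in set B. The lipid droplet protein gene Plin2 differed by +0.04 (95% interval -0.66 to 0.75), which averaged -0.76 in set A and +0.85 in set B. The metabolic kinase gene Pdk4 was +1.60 (adjusted p = 0.47), with both GW3965 arrays at the floor, so its size is not a measured fold. Pparg itself had 0.79 and 0.41 with GW7845, against 1.93 and 0.83 with GW3965, a difference of -0.78 (adjusted p = 0.59), and Lpl, on this list too, was the lowest member at -0.92.

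Interferon-stimulated genes, the main antiviral output of TLR3, also gave no called member of 23 tested. Their median was +0.12, which turned to -0.11 after quantile normalization and to -0.11 without GW3965 + PolyIC 2. Of the 23, 15 were above 0, beside 62.2% of all probes. The list ran from the guanylate-binding protein genes Gbp2 (-0.67) and Gbp3 (-0.58) to the exonuclease gene Isg20 (+0.96) and the ubiquitin-like Isg15 (+1.12). In set A 14 of the 23 were below 0, with a median of -0.11, and in set B 20 of 23 were above 0, with a median of +0.63. Of all 9486 tested probes, 3509 were below 0 in set A and 5108 above 0 in set B. Without GW7845 + PolyIC 1 the median was +0.67 and still no member was called. The chemokine gene Cxcl10 had 9.19 and 9.13 with GW7845, against 8.48 and 8.29 with GW3965, and 9.93 and 8.93 with poly(I:C) alone, and differed by +0.78 (95% interval -0.03 to 1.58, adjusted p = 0.64). Cxcl11 differed by +0.91 (adjusted p = 0.65), Slfn4 by +0.78 (adjusted p = 0.55), the antiviral GTPase gene Mx1 by +0.12 (95% interval -0.44 to 0.68), Ifit1 by +0.22 (95% interval -0.60 to 1.05) and Cxcl9 by -0.49 (95% interval -1.15 to 0.17). Of 5 tested genes of interferons and their receptors, none was called, and the members lay between -0.68 (Ifng) and +0.42 (Ifna7). Their median of -0.46 turned to +0.51 without GW7845 + PolyIC 1 and to +0.45 without GW3965 + PolyIC 1.

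Inflammatory genes likewise had no called member. Of 16 cytokine genes the median was -0.05, and it lay at -0.43 in set A and +0.23 in set B, and at +0.38 without GW7845 + PolyIC 1. Il6 had 7.86 and 7.86 with GW7845, against 7.70 and 7.90 with GW3965, and 9.32 and 8.50 with poly(I:C) alone, so it differed between agonists by +0.05 (95% interval -0.65 to 0.76). Il1b had 8.13 and 9.85 with GW7845, against 10.01 and 9.62 with GW3965 (-0.82, adjusted p = 0.76), and Tnf had 5.60 and 6.97, against 6.98 and 7.07 (-0.74, adjusted p = 0.61), in both the first GW7845 array being the lowest. In sets A and B the differences were -1.88 and +0.23 for Il1b, and -1.38 and -0.10 for Tnf. The lowest cytokine was Csf2 at -1.74 and the highest the anti-inflammatory Il10 at +1.18 (adjusted p = 0.31), with 1.34 and 0.45 with GW7845, against 0.02 and -0.60 with GW3965. Csf2 was low on the first GW7845 array alone, at -1.50, beside 1.70 on the second and 2.16 and 1.52 with GW3965. Of 19 chemokine genes the median was +0.21, from Ccl22 (-0.63) to the B-cell attractant Cxcl13 (+1.55). Ccl2 differed by -0.01, Ccl5 by +0.47 and Ccl12 by +0.87 (adjusted p = 0.69). Of 17 inflammatory effectors, median +0.48, Ptgs2 was -1.64 (adjusted p = 0.57), the pentraxin gene Ptx3 +1.51 and Nos2, the inducible nitric oxide synthase, +0.78 (adjusted p = 0.63). Ptgs2 differed by -3.64 in set A and +0.35 in set B.

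The remaining lists had no called member. Among 19 genes of the Toll-like receptor pathway (median +0.15) the LPS co-receptor gene Cd14 was +1.18 (adjusted p = 0.27) beside Tlr2, while Tlr3 was +0.19. Among 19 NF-κB feedback inhibitors (median -0.01) Atf3 was lowest at -1.13 and Dusp1 highest at +1.53. Dusp1 differed by +2.90 in set A and +0.16 in set B. Among 19 nuclear receptors and coregulators (median +0.25) the orphan receptor gene Nr4a1 was +1.88 (adjusted p = 0.27), with both GW7845 arrays above both GW3965 arrays. Medians were +0.01 for 14 lysosomal and lipid-handling genes, +0.20 for 13 genes of fatty acid oxidation and -0.09 for 18 of glycolysis and hypoxia, with Vegfa lowest at -1.35. They were +0.08 for 15 oxidative stress genes, with Mt2 at +2.91 (+5.11 in set A and +0.70 in set B), -0.26 for 17 genes of endoplasmic reticulum stress and heat shock, with Asns lowest at -1.26, +0.10 for 17 genes of antigen presentation and +0.28 for 17 cell cycle genes. With all arrays, the list medians other than that of the LXR targets lay between -0.46 and +0.48, but over the alternatives they ranged from -0.74 (interferons and receptors without GW3965 + PolyIC 2) to +1.04 (oxysterol enzymes with a stricter filter on dim probes). The LXR median stayed between -1.30 and -0.79 under the same alternatives.

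**Figure D4:**
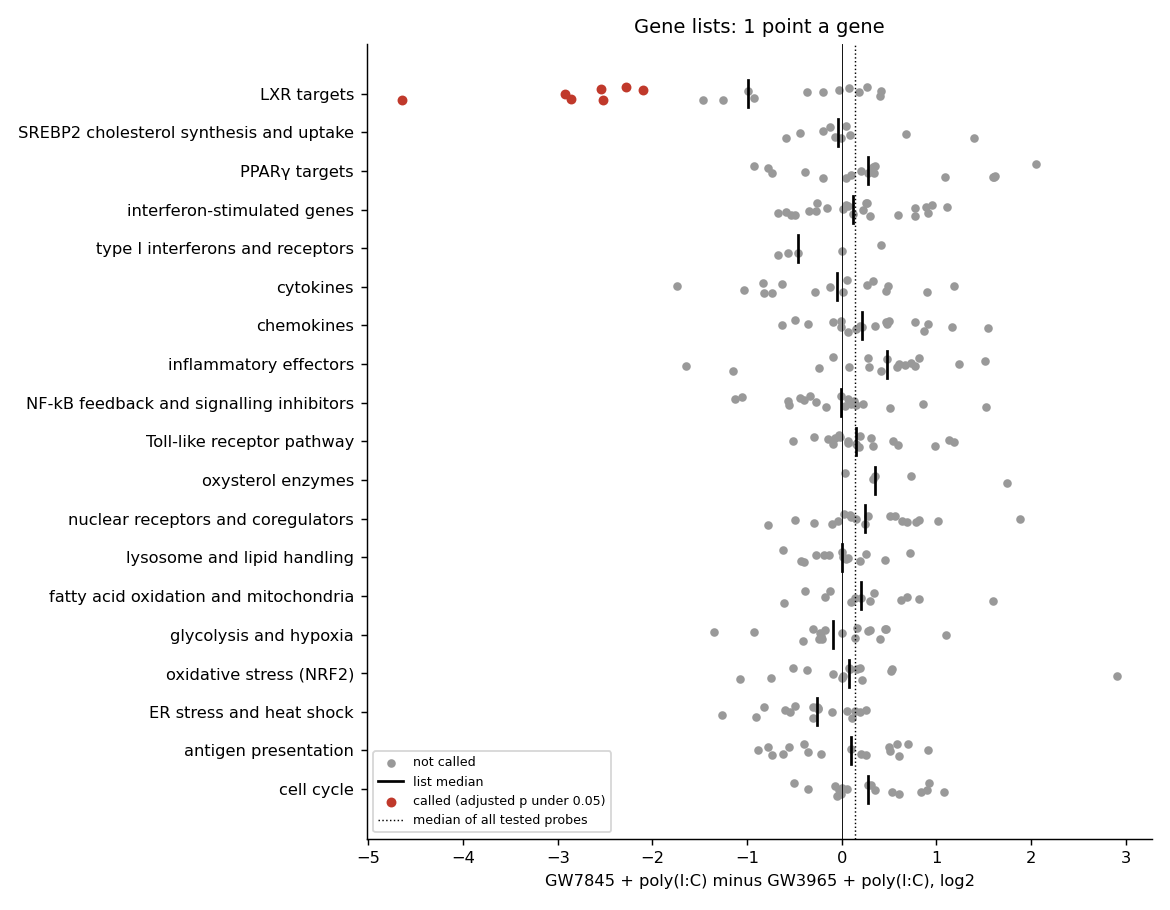
Difference between GW7845 and GW3965 under poly(I:C), log2, on the horizontal axis, with 1 point for each tested gene of 19 lists and a black bar at each list's median. Red points, the 7 called genes, all lie in the row of LXR targets, and the dotted line at +0.14 is the median of all tested probes.

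Ch25h, the enzyme that makes 25-hydroxycholesterol, an oxysterol that LXRs bind, had a result that turned on 1 array. It had 2.42 and 5.05 with GW7845, against 2.20 and 1.77 with GW3965, and 4.97 and 4.85 with poly(I:C) alone. With GW7845 the 2 arrays lay on either side of the gap, 1 near GW3965 and 1 near poly(I:C) alone, and the difference of +1.75 did not pass (SE 0.65, adjusted p = 0.55). Without GW7845 + PolyIC 1 it was +3.37 and was called (adjusted p = 0.0033). In the LPS arrays Ch25h had 3.42 and 4.17 with GW7845, against 0.94 and 0.42 with GW3965, a difference of +3.12 (adjusted p = 0.15).

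The fit without GW7845 + PolyIC 1 assumes that the remaining GW7845 array varied like the other groups. It called 12 probes, 7 of them shared with the 10 above. The 6 LXR targets Abca1, Abcg1, Scd2, Cd5l, Eepd1 and Mid1ip1 stayed lower, at -1.97 to -3.58, and probe 3661 stayed higher. Newly called were Ch25h and the caveolin gene Cav1 (+1.84, adjusted p = 0.035) higher, and Ciao2a (-2.07, adjusted p = 0.011), Timm13 (-1.97, adjusted p = 0.024) and Utp3 (-1.97, adjusted p = 0.044) lower. Without the other GW7845 array, which leaves the array that stood apart to stand for GW7845, 96 probes were called, 60 higher and 36 lower. Chil3, Hp, Clec7a and Tsc22d3 were among them.

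The same agonists were compared, within the same fit, in the LPS arrays, which share no array with the poly(I:C) comparison. limma called 6 of 9486 probes there (0.0633%), 2 higher with GW7845 (0.0211%) and 4 lower (0.0422%), with 567 at an unadjusted p under 0.05 (5.98%). Of these, 4 were also called under poly(I:C) in the same direction: Cd5l (-2.56, adjusted p = 0.00019), Eepd1 (-2.06, adjusted p = 0.0045), Mid1ip1 (-1.63, adjusted p = 0.029) and probe 3661 (+4.71, adjusted p = 0.00019). That is 4 of the 10 calls under poly(I:C) and 4 of the 6 under LPS. Each probe had the same SE in both comparisons, so a probe with a small SE was favoured in both. The shared calls are therefore not independent of each other. Cd5l had 3.06 and 3.66 with GW7845 and LPS, against 6.00 and 5.85 with GW3965 and LPS, close to its levels under poly(I:C). The other 2 were Slfn4 (+2.23, adjusted p = 0.0046) and probe 4796, with no symbol (-1.44, adjusted p = 0.037). Abcg1 was -1.91 (adjusted p = 0.053), Abca1 -2.12 (adjusted p = 0.18), Scd2 -2.33 and Fasn -1.48 (adjusted p = 0.38 for both). Of the 19 LXR targets, 18 were below 0 under LPS, with a median of -1.33, beside a median over all probes of -0.07. Within each set 18 of the 19 were below 0, beside 5414 of all 9486 probes in set A and 4876 in set B. For interferon-stimulated genes 19 of 23 were above 0, with a median of +0.39. By set, 21 (set A) and 19 (set B) of the 23 were above 0, beside 4071 and 4404 of all 9486 probes.

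The difference between stimuli was itself tested, as the poly(I:C) difference minus the LPS difference. No probe was called (0%; 529 at an unadjusted p under 0.05, or 5.58%). Scd2 had an interaction of -2.31 (SE 0.89, unadjusted p = 0.022), Cd5l +0.04 (SE 0.34) and Eepd1 -0.22 (SE 0.37). Apoe, at +0.07 under poly(I:C) and -1.33 under LPS, had +1.41 (SE 0.56, unadjusted p = 0.025). Probe 4439, with no symbol, had +2.90 (SE 0.55, unadjusted p = 0.00012, adjusted p = 0.55). The named probes of smallest p toward a higher poly(I:C) difference were Xist (+2.23, unadjusted p = 7.6e-05, adjusted p = 0.55), which was -0.52 under LPS, then Tra2a (+2.91), Akirin2 (+1.94), Ndst4 (+3.13) and Iyd (+3.13). Toward a lower one they were Mc5r (-2.17), the double-stranded RNA sensor PKR, Eif2ak2 (-1.60), Slfn4 (-1.45), Lce1a2 (-2.30) and Calml3 (-3.56), all at adjusted p = 0.85. Over all probes the differences under the 2 stimuli had a Pearson correlation of 0.09, which is a description.

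**Figure D5:**
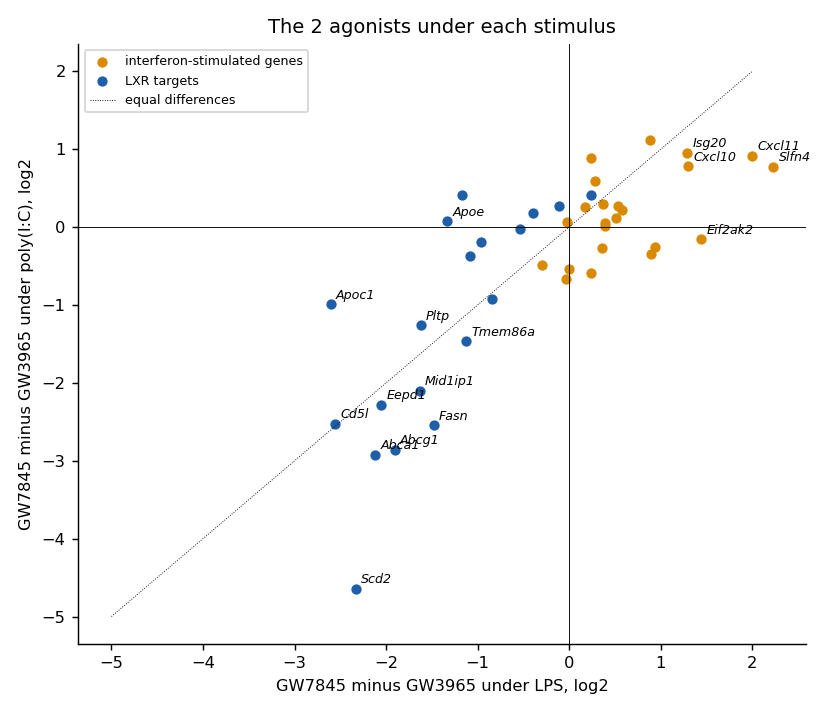
Difference between GW7845 and GW3965, log2, under LPS on the horizontal axis and under poly(I:C) on the vertical axis, for 19 LXR targets and 23 interferon-stimulated genes, with the dotted line marking equal differences. The 7 called LXR targets lie below 0 on both axes, with Scd2 the lowest under poly(I:C).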

How the data were processed

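RNA of 14 samples was measured on 1-colour arrays. Per the labels, total RNA was transcribed with biotinylated UTP. The deposited table holds 1 linear intensity for each of 10012 probes and array. The authors had scaled these intensities to a median of 1, and the sources used here do not give the scaling, background method or scanner. Groups follow the titles, with the spellings "GW396 5+" and "Polyl C" read as GW3965 and poly(I:C). Values were raised to a floor (0.0686, or -3.87 in log2, the 5th percentile of positive values) and log2 was taken of the deposited intensity. Probes with a value on all 14 arrays (9897), of which at least 2 lay above their array's 20th percentile, were tested (9486, 8512 with 1 symbol from the platform annotation). No detection calls were used, so low levels may be background, and the number of arrays limits the precision.

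limma 3.58.1 in R 4.3.3 fitted 7 group means and the array set to all 14 arrays (6 residual degrees of freedom, intensity trend, two-sided moderated tests, Benjamini-Hochberg adjustment over all tested probes). The fit was tested on simulated data with independent noise of the same spread on every array. That simulation held no array that stood apart, so it cannot speak for the calls that depend on GW7845 + PolyIC 1. The arrays were paired by set. Within-group differences between sets correlated at 0.354 to 0.674 over all 21 pairs of groups, and at -0.540 to 0.674 when paired by title number. The sets were cut on these same intensities, so the correlations describe the split and are no independent evidence for the pairing. In the 2 groups compared here, set and number coincide. Intervals are 95% and not adjusted for the number of probes.

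The members, gene lists and tests were chosen with earlier results of these data known. Named genes are up to 15 called in each direction, filled to 10 by p and then said not to pass, a list of 36 fixed genes (Mylip, Angptl4, Ifnb1 and Il12b had no tested probe), the 2 highest and 2 lowest of the lists described and the 5 of smallest p in each direction of the interaction. Exceptions, chosen after their values were seen, are the genes of the array that stood apart, those called without it, and Tlr3, Nr4a1, Pltp, Apoc1, Lpl and Tmem86a. Called genes were named only where both GW7845 arrays lay beyond both GW3965 arrays with the same sign in both sets. All 10 called probes met this. A gene with several probes is given by its brightest. Alternatives changed the block, the normalization, the filter, the floor, the trend, the arrays fitted and each array in turn.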

Additional observations from a re-analysis of the deposited data

How the results depend on the processing

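With 2 arrays a group, the number of calls moved with single arrays. Leaving out 1 of the 4 arrays compared gave 5 to 96 calls between the agonists under poly(I:C), against 10 with all arrays, and 4 to 7 called LXR targets, against 7. The fewest came without a GW3965 array: 6 calls without GW3965 + PolyIC 1 and 5 without GW3965 + PolyIC 2, with 4 LXR targets each time. Without the replicate block by array set, 4 probes were called, all LXR targets, and without the intensity trend 5, of which 4 were LXR targets. With the title number as the block, 8 were called, and in the other alternatives 10 to 12. Abca1 lost its call in 6 of 13 alternatives, Fasn in 5, Scd2 and Mid1ip1 in 2 each, and probe 4439 and Xist in 7 each. No called value changed sign. For GW7845 against GW3965 under LPS, with 6 calls, the count was 1 without the replicate block, 14 after quantile normalization, 10 with the stricter filter, 2 without the trend, 215 with only the 4 arrays compared, and 17 without GW7845 + PolyIC 1, a setting added after seeing the data. Leaving out 1 of its 4 arrays gave 2 (without GW3965 + LPS 1) to 48 (without GW3965 + LPS 2). The interaction gave 0 to 38 calls when 1 array was left out, the 38 without GW7845 + PolyIC 2, and 0 in every other setting. GW7845 against poly(I:C) alone gave 0 to 101 calls when 1 array was left out, the 101 without GW7845 + PolyIC 2 and 2 without GW7845 + PolyIC 1, and 0 otherwise. GW3965 against poly(I:C) alone, with 7 calls, gave 1 without the replicate block, 3 with the number as block, 1 without the trend, 52 with only the arrays compared, and 13 without GW7845 + PolyIC 1 (added after seeing the data). Leaving out 1 of its own arrays gave 0 to 4, with 0 without GW3965 + PolyIC 2 or poly(I:C) 1. The causes were not tested. Signal over background could not be judged, since no detection calls were used.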

Other observations

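Further genes set the array titled GW7845 + PolyIC 1 apart. The transglutaminase gene F13a1 had a level of 3.04 on it and -1.32 on GW7845 + PolyIC 2, against -1.08 and -2.15 with GW3965, and 1.62 and 0.34 in untreated macrophages. The myeloid growth factor gene Csf2 had -1.50 and 1.70 with GW7845, against 2.16 and 1.52 with GW3965. The metalloproteinase gene Mmp12 had 4.14 and 7.26 with GW7845, against 7.58 and 7.63 with GW3965. On the second GW7845 array the growth factor subunit gene Inhba had 4.47 and the interleukin-1 receptor antagonist gene Il1rn 7.79, against 3.53 and 3.10 for Inhba and 6.61 and 6.13 for Il1rn with GW3965, while the first array had 1.60 and 4.70.

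Against poly(I:C) alone, the difference of GW3965 was -2.93 for Ch25h (adjusted p = 0.20), -1.77 for Nos2 (adjusted p = 0.16), -1.74 for Ccl12 (adjusted p = 0.51) and -1.38 for Isg20 (adjusted p = 0.19), none of which passed. The differences of GW7845 were -1.18 for Ch25h, -0.996 for Nos2 (unadjusted p = 0.016, adjusted p = 1), -0.87 for Ccl12 and -0.42 for Isg20. These genes are examples, and other fixed genes had another order. Ptgs2 was -2.14 with GW7845 and -0.50 with GW3965, Il1b -1.50 and -0.68, and Tnf -0.93 and -0.19. In each of those the first GW7845 array was low. Il6 was -1.06 with GW7845 and -1.11 with GW3965, and Ccl2 -0.94 and -0.93.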
